A study of Mus musculus with 6 samples.

Results

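The wild-type (WT) hippocampus was examined on its own, from the 3 arrays titled Wild Type of a study that compared Phf8 knockout (KO) mice with their littermates. All 6 samples of the series are total RNA of hippocampus from mice of the C57BL/6 background, labelled as 10 weeks old, and the 3 KO arrays enter no value given here. The WT mice carry no engineered allele, and the study's methods describe male littermates. Those methods count hippocampus from several mice as a sample, so whether an array holds tissue of 1 mouse or of several is not given, and the spread between arrays may be partly technical. The unit described is the gene. Of 45037 probe sets, 34945 had a single gene symbol, and the probe set with the highest mean over the 3 WT arrays stood for each of 18193 genes, the same number as for the whole series. No group was compared with another, so no test was made, and every difference between arrays is a description with n = 3.

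The hippocampus holds the granule cells of the dentate gyrus and the pyramidal cells of the CA fields, which release glutamate, together with interneurons that release GABA. Astrocytes, oligodendrocytes and their precursors, microglia and blood vessels lie between them. The hippocampus borders the lateral ventricle, where the choroid plexus, a sheet of epithelium that makes cerebrospinal fluid, hangs beside it. Neurons are rich in RNAs for synaptic vesicle proteins, the cytoskeleton and ion pumps. On an Affymetrix array a probe set is a group of short DNA probes, and its brightness follows both the amount of RNA and how well the probes bind. A rank of signals is therefore not a rank of transcript numbers.

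The deposited values are log2 signals made with MAS5, the Affymetrix algorithm that scales each array to 1 mean brightness. A gene was called detected when its signal lay above the 40th percentile of all probe sets on each of the 3 arrays, at 5.83, 5.98 and 5.95 on WT replicates 1, 2 and 3. In all, 12146 of 18193 genes (66.8%) were detected, 1207 passed on some arrays and 4840 on none. Spread was read over the 9800 genes whose mean signal exceeded 7.60, the 60th percentile of probe set means, because dim MAS5 values scatter. Phf8, the gene deleted in the KO mice of the series, had log2 signals of 9.90, 9.66 and 9.73 on the 3 WT arrays. The Y-linked genes Eif2s3y, Kdm5d and Uty had mean signals of 10.43, 9.04 and 8.66, whereas Xist, which coats the silenced X of females, was at 5.90 and passed on some arrays only.

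The 30 genes of highest signal had mean log2 signals from 14.86 to 14.25. Highest was ND5, a mitochondrially encoded subunit of respiratory complex I, with 14.84, 14.82 and 14.91 on WT replicates 1, 2 and 3. Rps29, a protein of the small ribosomal subunit, followed with 14.90, 14.80 and 14.85. The order of these neighbours differed between arrays, with Rps29 first on WT replicate 1 and ND5 first on WT replicate 3. On WT replicate 2 the signal of Atp1b1, the beta subunit of the sodium pump, was the brightest at 14.82.

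Neuronal genes among the 30 included Snap25, a SNARE protein of vesicle fusion, with 14.72, 14.56 and 14.73, and Gpm6a, a membrane glycoprotein of neurites, with 14.58, 14.60 and 14.53. Cpe, the carboxypeptidase that processes neuropeptides, had 14.59, 14.45 and 14.55, and Ppp3ca, the catalytic subunit of calcineurin, had 14.40, 14.34 and 14.25. Of these 4 genes Snap25 had the widest span, 0.17. Also in this range were Enc1, an actin-binding protein of neurons, Nsmf, a messenger from synapse to nucleus, and Prnp, the prion protein, with means of 14.32, 14.29 and 14.28.

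Glial and epithelial genes were represented by Mbp, the myelin basic protein of oligodendrocytes, with 14.79, 14.65 and 14.71, and by Cst3, a cysteine protease inhibitor abundant in astrocytes and microglia, with 14.31, 14.29 and 14.24. Scd2, a fatty acid desaturase of the brain, had 14.24, 14.26 and 14.31. The gene ranked in position 3 was Ttr, the thyroid hormone carrier made by the choroid plexus, with 14.83, 14.71 and 14.76. For these genes the 3 arrays gave nearly the same value.

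The other genes encode proteins of many kinds, with Norad, a long noncoding RNA, in position 30. Among them were Fth1, the heavy chain of ferritin, Eef1a1, which brings aminoacyl-tRNA to the ribosome, Tmsb4x and Pfn2, which bind actin monomers, the chaperones Hspa8 and Hsp90aa1, the adaptor proteins Ywhab and Ywhaz, Cox6a1 of respiratory complex IV, Rps28 of the small ribosomal subunit, Tpt1, a translationally controlled protein, and Ndrg4 and Fbxl16. Hsp90aa1 had 14.26, 14.24 and 14.25, and Hspa8 had 14.52, 14.50 and 14.52. Rpl38, a protein of the large ribosomal subunit, spanned only 0.0052 between its highest and lowest array, and Tuba1a, an alpha tubulin, spanned the most of the 30, 0.28, with 14.43, 14.23 and 14.51.

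**Figure D1:**
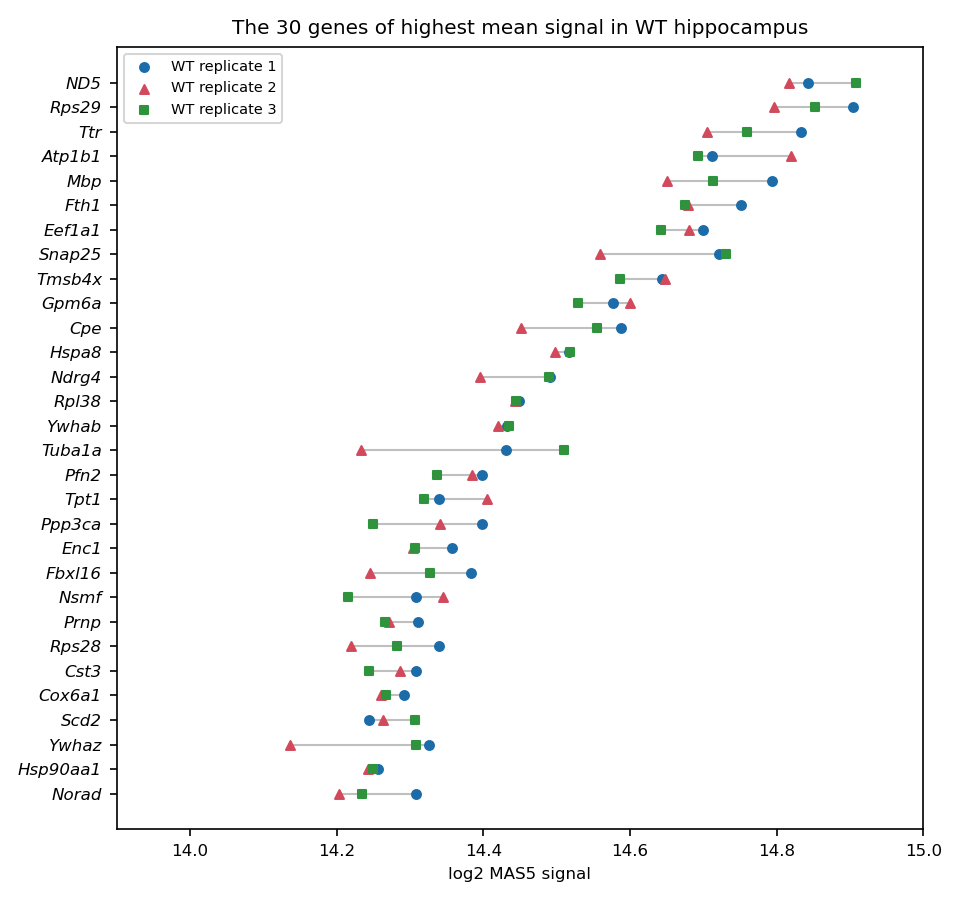
Log2 MAS5 signal (x axis) of the 30 genes of highest mean signal (y axis, from the highest down) on each WT array, with a line joining the 3 values of a gene. The means run from 14.86 to 14.25, and Tuba1a, with a span of 0.28, shows the widest line.

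The top of the ranking differed little between arrays and more between probe sets. Each array's own 30 brightest genes shared 29, 29 and 28 with the 30 named here, and the lowest position that any of these took on a single array was 38. Their median SD was 0.05 (n = 3 arrays). All lay close to the brightest value of each array (14.90, 14.82 and 14.91), and whether the top of the scale narrowed these spans was not tested. By contrast, 23 of the 30 had more than 1 probe set, and for only 4 of them did another set also reach the level of the 30. Some came close, with second sets of Ywhaz, Ywhab and Hspa8 at means of 14.19, 14.18 and 14.10, and others were far dimmer. Snap25 had a second set with a mean of 8.52, Norad had one at 8.98, and Tpt1 had one at 3.37, below the detection level. Mbp had 8 probe sets whose means ran from 14.72 to 7.05. Over the 9010 genes with several probe sets the brightest exceeded the next by a median of 1.42 on the log2 scale, or 2.68-fold. The sum of linear signals was spread widely: the first 30 genes held 3.72% of it, the first 100 held 9.89% and the first 1000 held 44.1%.

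Of the 36 measured genes for cytosolic ribosomal proteins, 35 were detected, with a median log2 signal of 13.26 against 7.97 over all 18193 genes. Genes of this family are known to start transcription at a C within a run of pyrimidines. In RefSeq promoter windows of GRCm38.p6, from 250 bases before the annotated start to 50 bases from it on, a start at C followed by at least 4 further C or T was found in 8 of 31 ribosomal protein genes (25.8%), against 2.49% of 27025 genes with a window. Among the 30 genes of highest signal, 15 had a window, and Rpl38, Tuba1a and Prnp held this start. The window of Rpl38 (chr11:114668330-114668629, plus strand) is shown because it holds the start described. Capitals mark the start C and the 7 pyrimidines after it.
Rpl38: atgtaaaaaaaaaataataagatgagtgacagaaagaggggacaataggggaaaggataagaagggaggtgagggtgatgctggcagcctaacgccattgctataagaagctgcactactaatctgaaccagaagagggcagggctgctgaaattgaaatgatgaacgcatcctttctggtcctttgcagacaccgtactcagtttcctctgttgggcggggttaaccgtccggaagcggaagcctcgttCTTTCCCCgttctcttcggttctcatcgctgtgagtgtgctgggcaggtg
A match is a description of these letters and not evidence of use. The one ribosomal protein gene below the detection level was Rps16, whose probe set had a mean of 0.77. Since every cell needs Rps16, a probe set at background does not show that the RNA is missing.

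Genes of other energy and structural systems were also bright. All 43 measured genes of oxidative phosphorylation were detected, with a median signal of 13.15 and a median SD of 0.04 (n = 3), and all 23 of the cytoskeleton, with a median signal of 13.50. The 22 measured genes of synaptic vesicles and release were all detected, with a median of 12.74. Among the 15 ionotropic glutamate receptor genes the median was 9.23, and all passed. GABA-A receptor genes differed widely from each other, with means from 3.58 to 12.47. Of the 15 measured, 9 passed on every array, a share near the 66.8% of all genes for so short a list. Their median was 7.59, beside 7.97 over all 18193 genes, and describes the list rather than its bright members. Brightest were Gabrb1, Gabrb2 and Gabra5, with means of 12.47, 12.37 and 11.97. Dimmest were Gabrq at 3.58 and Gabra6, which also stands on the cerebellum list, at 4.23.

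Among 161 measured genes that mark neurons and glia, 152 were detected on all 3 arrays, against the 66.8% of all genes. For neurons it was 91 of 96, with a median signal of 10.67, and for glia 61 of 65, with a median of 10.12. Genes that belong to liver, muscle, testis, skin, gut, pancreas or lung served as a background: 7 of 43 passed, and their median was 3.88. The brightest of these were the keratin gene Krt10 at 9.61 and Lor, for the skin protein loricrin, at 8.46, so that a single gene above the level is weak evidence for its cell type. The share of a cell type and the RNA per cell cannot be told apart in such bulk tissue.

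All 16 pan-neuronal genes passed, with a median of 12.86. Syt1, the calcium sensor of vesicle release, had 14.12, 14.06 and 14.16, and Thy1, a surface glycoprotein of neurons, had 13.29, 13.26 and 13.29. Rbfox3, the splicing factor behind the NeuN stain, had 12.90, 12.87 and 12.85. All 12 markers of excitatory neurons passed as well. Neurod6, a transcription factor of pyramidal cells, had 12.49, 12.25 and 12.46, and Slc17a7, the vesicular glutamate transporter, had 10.04, 9.80 and 9.75. Nrgn, a calmodulin-binding protein of spines, showed a wider span, with 12.80, 13.36 and 12.66, and was highest on WT replicate 2.

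Markers of each field of the hippocampus were detected, beside 66.8% of all genes. A pass is weak evidence for a field, since 17 of 19 genes of thalamus and habenula passed too. For dentate granule cells 16 of 16 markers passed, with a median of 10.18, among them Prox1, the transcription factor that defines these cells, with 9.31, 9.22 and 8.82, and Calb1, the calcium buffer calbindin, with 12.60, 12.57 and 12.52. All 9 CA1 markers passed. Wfs1, an endoplasmic reticulum membrane protein, had 10.54, 10.71 and 10.72, and Pou3f1, a transcription factor, had 11.74, 11.60 and 11.39. For CA3, 10 of 10 passed, among them Bok, a member of the BCL2 family, with 10.74, 10.68 and 10.34. Grik4, a kainate receptor subunit, had 7.01, 7.38 and 7.38. Coch, which had 7.38, 8.51 and 6.64, had the widest span of that list but lay below the filter. Of 6 CA2 markers 5 passed. Rgs14, a regulator of G proteins, had 11.37, 11.16 and 10.93, whereas the vasopressin receptor gene Avpr1b had a mean of 2.73 and did not pass.

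Markers of GABAergic interneurons passed in 17 of 19 cases. Gad1 and Gad2, which make GABA, had means of 13.52 and 11.30, and the vesicular GABA transporter Slc32a1 had 9.77, 9.82 and 9.98. Peptides and calcium buffers of interneuron classes were detected too, with Sst (somatostatin) at a mean of 12.29, Npy (neuropeptide Y) at 11.15, Pvalb (parvalbumin) at 10.90 and Vip at 10.61. Dlx6, a homeobox gene, had 5.41, 6.38 and 6.44 and passed on some arrays only, and the neuregulin receptor gene Erbb4 had 0.79, 0.88 and 3.75. Of 8 markers of mossy and subicular cells 6 passed, and Drd2 and Calcr, receptor genes for dopamine and calcitonin, did not. Of 12 genes of adult neurogenesis 6 passed, among them Dcx, a microtubule protein of immature neurons, at 7.98. Mki67 and Top2a, which dividing cells use, had means of 5.11 and 5.49 and did not pass on all arrays.

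All 19 astrocyte markers passed, with a median of 11.94 and a median SD of 0.07 over the 18 above the filter. Slc1a2, the main glutamate transporter, had 14.05, 14.01 and 14.02, and Glul, glutamine synthetase, had 13.99, 13.89 and 13.98. Aqp4, the water channel of astrocyte endfeet, had 11.59, 11.63 and 11.76, and Gfap, the intermediate filament, had 10.48, 10.27 and 10.28. Gfap had the widest span of these 4 genes, 0.20, while over the whole list it was Agt, angiotensinogen, with 7.54, 7.12 and 8.09.

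Of 17 oligodendrocyte and myelin genes 16 passed, with a median of 10.33. Mobp, a myelin protein, had 13.65, 13.78 and 13.46, Mag had 10.27, 10.25 and 9.85, and Mog had 8.93, 8.92 and 8.66. The gap junction gene Gjb1, at a mean of 5.60, did not pass. Of 10 precursor markers 8 passed. Pdgfra, the growth factor receptor of these cells, had 10.34, 10.46 and 10.44, and Cspg4, the NG2 proteoglycan, had 6.55, 5.97 and 6.85 and fell just short on WT replicate 2. C1ql1, with a mean of 6.07, fell short on WT replicate 1.

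Among 19 microglia markers 18 passed, with a median of 8.94. Csf1r, the receptor on which microglia depend, had 12.04, 12.10 and 12.08, and P2ry12, their purine receptor, had 10.07, 9.93 and 10.18. Trem2, a lipid receptor, had 6.23, 4.38 and 5.82 and passed on WT replicate 1 only. Of vessel cell markers, 15 of 16 endothelial and 11 of 13 pericyte and smooth muscle genes were detected, beside 66.8% of all genes. Cldn5, the claudin of the blood-brain barrier, had a mean of 9.16, and Rgs5, of pericytes, 12.03. The endothelial receptor gene Tie1 and the mural genes Anpep and Cnn1 had means of 3.98, 3.11 and 2.07 and passed on no array. Of 8 erythrocyte genes 7 passed. Leukocyte and platelet genes passed in 6 of 15 cases and those of perivascular macrophages in 5 of 11, both below the share over all genes.

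**Figure D2:**
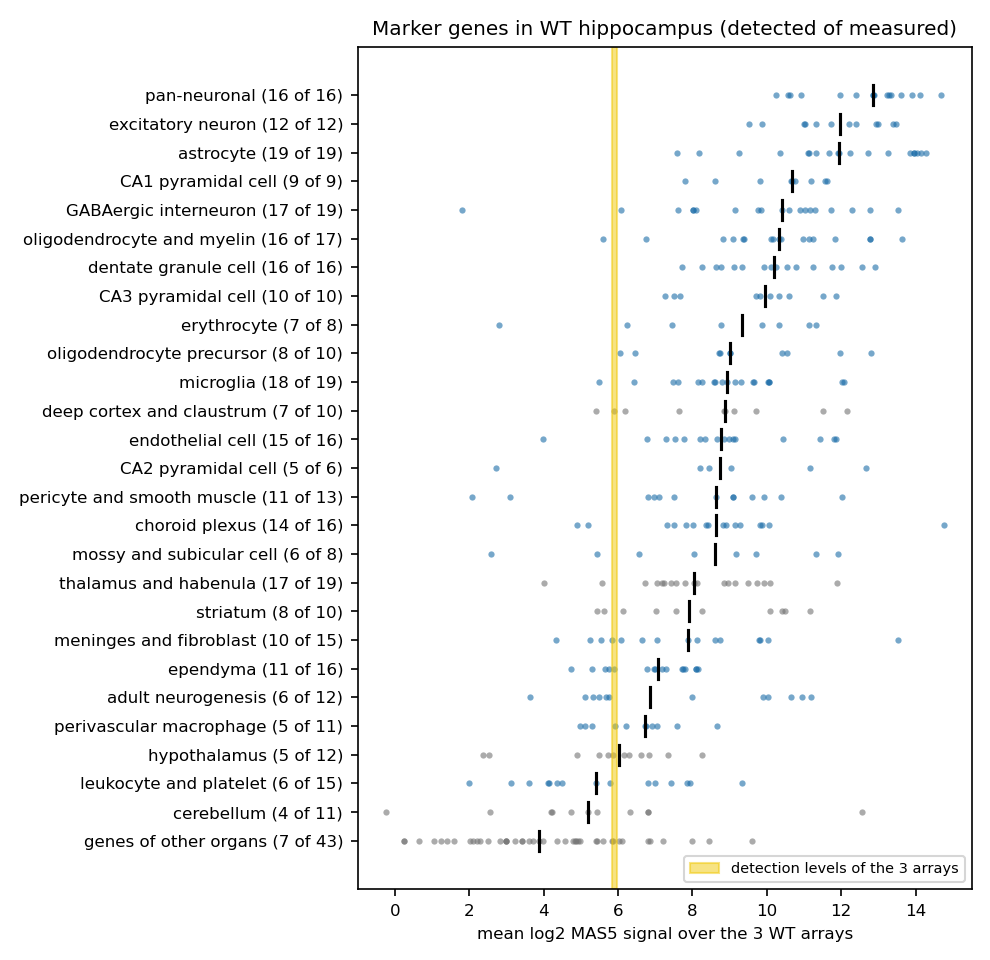
Mean log2 MAS5 signal over the 3 WT arrays (x axis) of each marker gene (points), by list (y axis, with the number detected of the number measured), with the median of a list as a black bar and the detection levels of the arrays as a yellow band. Grey points are genes of neighbouring regions and of other organs. All 16 pan-neuronal and all 19 astrocyte genes lie right of the band, and 7 of 43 genes of other organs were detected.

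Spread between the 3 arrays was small for most genes and grew as the signal fell. Over the 9800 genes above the filter the median SD was 0.09 (n = 3 arrays) and the median span, highest minus lowest array, was 0.17 on the log2 scale, or 1.13-fold. The span was under 0.2 for 5687 of them (58.0%). When all 18193 genes were divided into 10 equal bins by signal, the median SD was 0.06 in the brightest bin and 1.09 in the dimmest, and the share spanning at least 1 went from 0.0549% to 79.2%. Array pairs differed by a median of 0.09 for WT replicates 1 and 2, 0.10 for 1 and 3, and 0.11 for 2 and 3. The genes that differed by at least 1 in these pairs numbered 17, 27 and 58.

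**Figure D3:**
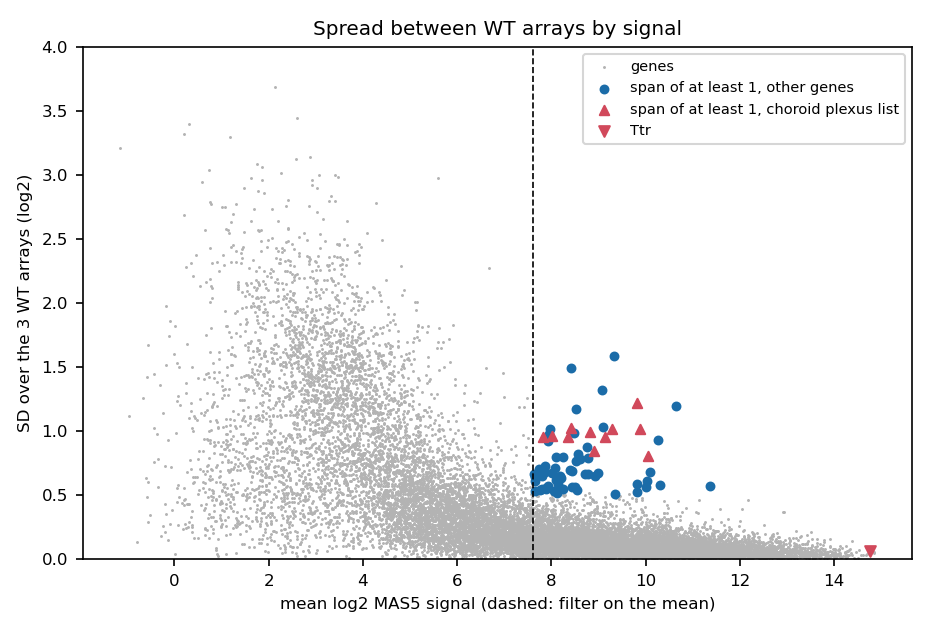
SD over the 3 WT arrays (y axis, log2) of each of 18193 genes against its mean log2 MAS5 signal (x axis), with the filter at 7.60 as a dashed line. Blue points and red triangles right of the line are the 68 genes that span at least 1, the triangles pointing up are those on the choroid plexus list, and Ttr, at the far right, lies near the bottom.

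A span of at least 1, or 2-fold, was found for 68 of the 9800 genes (0.694%), and for 10 of these it was at least 2. The direction was uneven. In 46 of the 68 the order was WT replicate 2 highest, then 1, then 3, an order held by 1963 of all 9800 genes. WT replicate 3 was highest in 18, and the other 4 had other orders. The 46 differed between WT replicates 2 and 3 by a median of 1.57 and at most by 2.97. Since the 68 were chosen by their span on these arrays, their number and order are a description.

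Of all lists, that of the choroid plexus had the most members among the 68. The lists were drawn up with earlier results of these data known, so the counts per list are a description and not independent support. Of its 16 measured genes 14 were detected, and of the 12 above the filter 11 spanned at least 1, all of them highest on WT replicate 2 and lowest on WT replicate 3, with spans of 1.61 to 2.43. The median ratio of WT replicate 2 to WT replicate 3 over these 11 was 3.74-fold. Clic6, a chloride channel protein, had 9.87, 11.01 and 8.58 on WT replicates 1, 2 and 3, and its other probe set had 8.65, 9.47 and 7.38. Folr1, the folate receptor that carries folate into cerebrospinal fluid, had 9.51, 10.17 and 8.17. Kcne2, a potassium channel subunit, had 8.74, 9.86 and 7.88. These genes kept 1 order, and WT replicate 1 lay between the other arrays each time.

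Otx2, the homeobox factor needed for this epithelium, had 7.93, 8.71 and 6.82, and Kl, the FGF23 co-receptor klotho, had 10.05, 10.86 and 9.24. Sostdc1, a secreted antagonist of BMP and WNT signals, had 9.93, 10.86 and 8.83, and Cldn2, a claudin of leaky epithelia, had 8.24, 9.37 and 7.48. Steap1, a metalloreductase family member, had 8.45, 9.42 and 7.38, and the coagulation factor gene F5 had 8.86, 9.78 and 8.09. Calml4 and Slc13a4, a sulfate transporter gene, completed the 11, with spans of 1.90 and 1.89. Below the filter, Aqp1, the water channel of the plexus, had 7.45, 8.42 and 6.05 in the same order.

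Above the filter, Ttr was the 1 marker of this epithelium that did not follow. Its brightest probe set spanned 0.13, with WT replicate 1 highest, at a level close to the brightest value on each array, as given above. The dimmest of its 4 probe sets had 14.54, 14.71 and 14.16, a span of 0.54 in the order of the other choroid plexus genes. The sets between these had 14.73, 14.62 and 14.55, and 14.50, 14.52 and 14.51, neither in that order. Trpv4, a cation channel gene below the detection levels, had a mean of 4.90 and was also in another order, highest on WT replicate 1. Tmem72 had 5.92, 6.43 and 3.25, so that 14 of the 16 measured genes of the list were highest on WT replicate 2 and lowest on WT replicate 3.

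Promoter windows of the choroid plexus genes differed widely in CpG content. RefSeq windows of GRCm38.p6 were given for 12 of the 16 measured choroid plexus genes, and they held a median of 7.5 CpG dinucleotides in 300 bases, against 21 for the 9844 detected genes with a window, 5 for 3680 genes below the level on all arrays and 7 over 27025 genes. F5 had the fewest of the 12, 4, and Steap1 the most, 33. Their windows are shown because these genes moved together on the arrays while standing at the ends of this range (F5 at chr1:164151585-164151884 on the plus strand, Steap1 at chr5:5749268-5749567 on the minus strand, each 5′ to 3′). Capitals mark each CG.
F5: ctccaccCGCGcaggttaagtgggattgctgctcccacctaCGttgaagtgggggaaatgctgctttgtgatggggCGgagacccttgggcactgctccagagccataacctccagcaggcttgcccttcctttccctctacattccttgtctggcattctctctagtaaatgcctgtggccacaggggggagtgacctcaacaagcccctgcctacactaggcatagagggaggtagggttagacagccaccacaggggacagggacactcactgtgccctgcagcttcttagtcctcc
Steap1: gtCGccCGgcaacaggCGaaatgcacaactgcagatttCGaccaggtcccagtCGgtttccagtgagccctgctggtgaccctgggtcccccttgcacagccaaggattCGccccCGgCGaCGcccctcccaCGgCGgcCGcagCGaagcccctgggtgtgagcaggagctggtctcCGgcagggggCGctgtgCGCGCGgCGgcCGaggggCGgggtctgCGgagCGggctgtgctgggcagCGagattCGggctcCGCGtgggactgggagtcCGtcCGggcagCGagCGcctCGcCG
The letters TATAAA, sought on both strands, were in 3 of the 12 windows (25.0%), Otx2 and Cldn2 among them, and in 14.2% of all windows.

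The 20 genes of largest SD (1.58 to 0.92, with 0.88 next) held 9 of the choroid plexus list, and 18 of the 20 had the order WT replicate 2, 1, 3. Several of the rest are not markers on that list but shared its order. The list held only 18 genes, so a gene outside it may still be made in the choroid plexus, which was not tested. Ecrg4, a secreted peptide precursor, had 10.71, 11.80 and 9.42, and another of its probe sets had 10.62, 11.45 and 9.45. Kcnj13, an inward rectifier potassium channel, had 10.26, 11.21 and 9.35, and Col8a1, a collagen chain, had 8.57, 9.69 and 7.34. Col8a2, Col9a3, Lbp, Sgms2 and Prr32 showed it too, with spans between 1.83 and 2.07. In all, 35 of the 57 genes outside the choroid plexus list that spanned at least 1 had this order.

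Largest of all was Lcn2, a siderophore-binding protein induced in inflammation, which had 9.97, 10.49 and 7.52 and a single probe set. WT replicate 3 stood apart from the other arrays there. Rbm45, an RNA-binding protein gene with a single probe set, had 9.70, 8.79 and 6.77, and was highest on WT replicate 1. Ces5a, a carboxylesterase gene, had 7.54, 9.77 and 9.89 and was the one of the 20 lowest on WT replicate 1. Its other probe sets had means of 5.69 and 5.31, below the detection levels, and spans of 0.33 and 0.43.

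**Figure D4:**
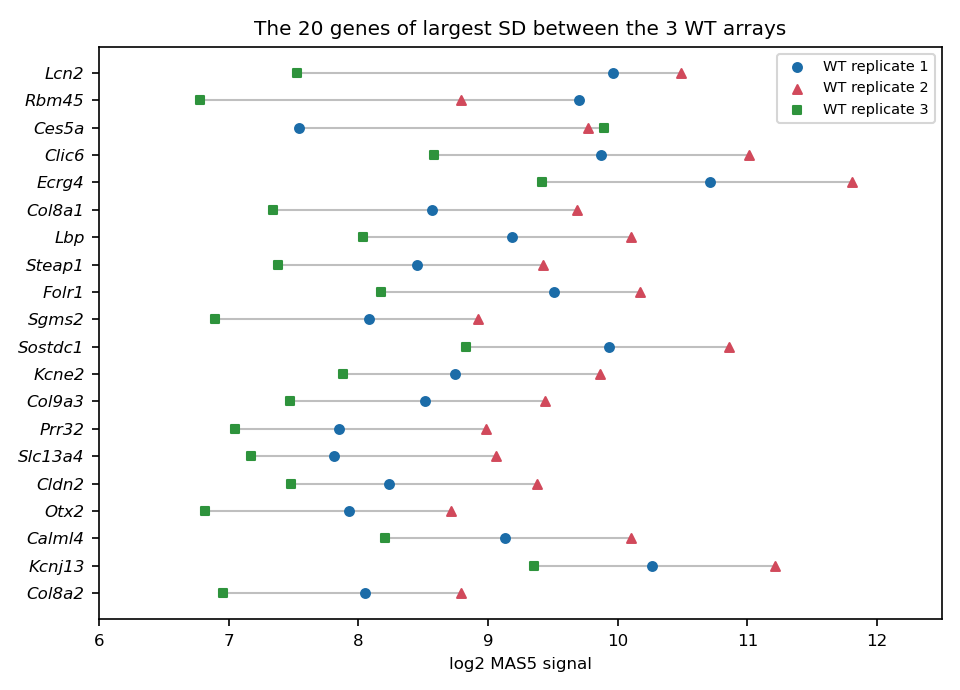
Log2 MAS5 signal (x axis) on each WT array of the 20 genes of largest SD above the filter (y axis, from the largest down), with a line joining the 3 values of a gene. Red triangles (WT replicate 2) lie right and green squares (WT replicate 3) left in 18 of the 20, the exceptions being Rbm45 and Ces5a.

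Ependyma and meninges, which lie beside the choroid plexus, showed smaller shifts. Of 16 ependyma genes 11 were detected, and all 6 above the filter were lowest on WT replicate 3. Dynlrb2, a dynein light chain, had 7.99, 8.77 and 7.54, and Foxj1, the master regulator of motile cilia, had 6.82, 7.34 and 6.81. Of 15 meninges and fibroblast genes 10 were detected, and the share detected in both lists was near the 66.8% of all genes. Igf2, a growth factor of meninges and choroid plexus, had 9.97, 10.68 and 9.46, and Igfbp2, a binding protein for such factors, had 9.64, 10.30 and 9.42. The list as a whole did not keep their order. Of its 8 genes above the filter, 6 were highest on WT replicate 2 and 2 on WT replicate 3. The lowest array was WT replicate 1 for 4 of the 8 and WT replicate 3 for 3. Lum had 8.01, 8.12 and 8.28, highest on WT replicate 3. The defining collagen gene Col1a1 had 5.20, 4.99 and 5.52 and did not pass on any array. Over the whole choroid plexus list, the median departure from the mean of a gene was 0.05, 0.99 and -0.97 on WT replicates 1, 2 and 3, against -0.04, 0.25 and -0.23 for ependyma and -0.13, 0.15 and -0.09 for meninges. These list medians include genes below the filter. Over all 18193 genes the medians were -0.0088, 0.0135 and 0.0020, and over those above the filter 0.0049, -0.0012 and -0.0062. The part of choroid plexus tissue in the values of the other genes of this order was not tested.

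The 18 genes highest on WT replicate 3 belong to no list as a group, and those described were chosen after their values were seen. The 18 exceeded the next array by a median of 0.70. Lpl, lipoprotein lipase, had 11.20, 10.90 and 12.01, and its other probe set had 8.52, 8.19 and 9.31. Unc13c, a vesicle priming protein, had 8.59, 8.51 and 9.67, with 7.69, 7.57 and 8.93 in its second probe set. Necab1, a neuronal calcium-binding protein, had 10.04, 9.43 and 10.78, with a second probe set at 6.02, 5.83 and 7.18. For these 3 genes the brightest and the next probe set put WT replicate 3 highest and WT replicate 2 lowest.

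Among the others, Grp, gastrin-releasing peptide, had 9.94, 9.99 and 10.97, Cbln4, a secreted synapse organizer, had 8.35, 8.46 and 9.55, and Cckbr, a cholecystokinin receptor, had 7.48, 7.37 and 8.55. Hrh3, the histamine autoreceptor, and Kcna6, a potassium channel, spanned 1.01 and 1.12. The rest were Gpr101, Prag1, Cklf, Ces5a, Chpf2, Dcaf4, Srgap1, Zdhhc22 and 1810044D09Rik, with spans of up to 2.35. The second probe sets of Ces5a, Cklf, Chpf2, Kcna6, Prag1, Srgap1 and 1810044D09Rik did not put WT replicate 3 highest. That of Chpf2 had 7.24, 7.17 and 6.95, lowest on WT replicate 3. The second sets of Cckbr and Dcn put WT replicate 3 highest, at values below the detection levels. Dcn, the proteoglycan decorin, which stands on both the CA1 and the meninges list, had 9.49, 9.47 and 10.50. Among the 88 neuronal markers above the filter Dcn was the only one to span at least 1. Of the 57 glial markers above the filter none did. Both counts are near the share over the 9800 genes, 0.694%.

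Smaller shifts ran through several neuronal lists, which were also drawn up with earlier results of these data known. All 16 markers of dentate granule cells were above the filter, and all 16 were lowest on WT replicate 3, against 37.6% of the 9800 genes. Lct, which marks these cells in mouse hippocampus, had 10.82, 10.64 and 10.19, Dsp, desmoplakin, had 11.43, 11.32 and 10.95, and Trpc6, a cation channel, had 8.94, 9.01 and 8.39. For C1ql3, a secreted synaptic protein, the arrays lay close together, at 12.93, 12.91 and 12.86. The median departure of the list from the mean of a gene was 0.14, 0.06 and -0.17.

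Markers of GABAergic interneurons went the other way. Of 17 above the filter 15 were highest on WT replicate 3, against 33.8% of the 9800 genes, and the exceptions were Npy and Tac1. Gad1 had 13.48, 13.45 and 13.65, Gad2 had 11.34, 11.08 and 11.47, and Calb2, calretinin, had 9.18, 8.86 and 9.37. The median departure was -0.05, -0.08 and 0.15. WT replicate 3 was also highest for 11 of 16 pan-neuronal genes, 14 of 22 genes of synaptic vesicles and release, and 6 of 7 genes of deep cortex and claustrum above the filter, with median departures of 0.08, 0.07 and 0.18 on that array. For excitatory neurons it was highest for 3 of 12. Oligodendrocyte and myelin genes were lowest on WT replicate 3 in 10 of 15 cases, with Myrf, their transcription factor, at 10.68, 10.61 and 9.87. For the lists of astrocytes, microglia, CA1 and CA3 each median departure lay between -0.03 and 0.03.

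**Figure D5:**
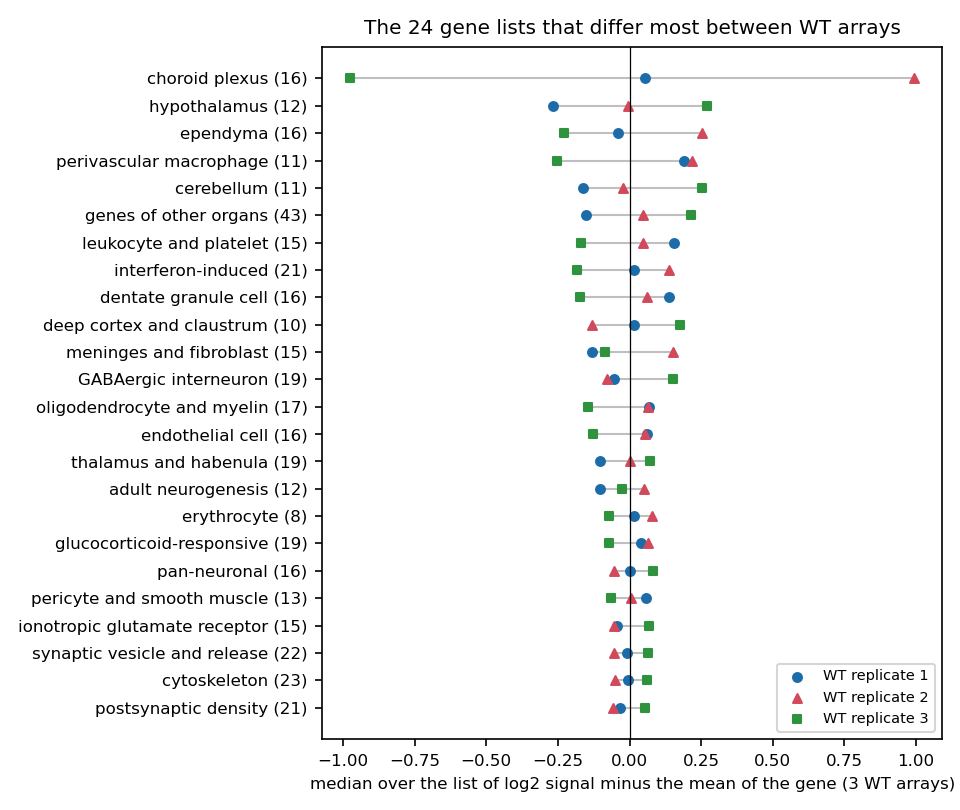
Median over a list (y axis, with the number of measured genes) of the log2 signal minus the mean of the gene (x axis) on each WT array, for the 24 lists whose arrays lie farthest apart. Choroid plexus runs from -0.97 to 0.99, and the next widest, hypothalamus, from -0.27 to 0.27. The medians include dim genes, whose values scatter. Of the 12 hypothalamus genes 5 were detected and 1 lay above the filter. Genes of other organs, with 7 of 43 detected, differed by 0.37.

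A second probe set was a check on the genes of wide span. Of the 68, 31 had a single probe set and 15 had a second one above the filter. In 11 of these 15 the second set had the same highest and lowest array, against 947 of 3919 genes (24.2%) above the filter with such a second set. The 15 were chosen for wide spans and the 3919 were not, so the shares are not like for like. The others of the 68 had a second set below the filter and were left out. Among them, Col8a1 and Steap1 kept the same highest and lowest array in that set, and Ces5a and Sgms2 did not. Sulf1, a heparan sulfate sulfatase gene, was among the 11, with 8.66, 9.68 and 7.93 and a second set at 7.69, 8.80 and 7.41. Cklf was among those that differed, with 8.91, 7.72 and 9.19 in its brightest set and 7.52, 7.81 and 7.66 in the next. Probe sets of a gene share its RNA sample, so the check bears on the probes and not on the animals.

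Genes that respond to handling and stress were mostly detected, beside 66.8% of all genes. Of 38 measured immediate early genes 35 were detected, with a median SD of 0.11 over the 30 above the filter, against 0.09 over all 9800 genes. None of the 30 spanned 1, beside 0.694% of the 9800. Egr1 and Fos, transcription factors induced by activity, had means of 13.29 and 10.94. All 18 chaperone genes and all 19 glucocorticoid-responsive genes were detected. Of the 16 glucocorticoid-responsive genes above the filter only Lcn2 spanned at least 1, beside 0.694% of the 9800. A single gene is too few to describe the list. The median SD of the glucocorticoid-responsive genes above the filter was 0.11. Plin4, a lipid droplet protein, had 8.32, 8.28 and 7.43, lowest on WT replicate 3, and Hspa1b, an inducible chaperone, had 11.70, 11.95 and 12.46, highest there. Of 21 clock genes 20 were detected. Nr1d1, at a mean of 4.52, was not.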

How the data were processed

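RNA of 3 WT hippocampus samples was hybridised to Affymetrix arrays, and the 3 KO arrays of the series were left out. The deposited values are log2 signals of probe sets. MAS5 and affy appear in the submitters' processing notes with no versions. According to the study's methods, GeneSpring was used and probes with an Absent call were removed. No such calls were used here. The authors' scaling left a mean signal of 497.9 to 498.1 on each WT array after 2% of probe sets was trimmed at each end. Log2 values ran from -4.62 to 14.91, and the median from 6.68 to 6.76.

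Gene names came from a platform table that gives 1 gene for 34945 of 45037 probe sets, several for 932 and none here for 9160. Of the probe sets with 1 gene, 34741 matched a gene of RefSeq on GRCm38.p6, and no symbol changed. Control probe sets are not among them. Promoter windows of RefSeq on that build were matched by symbol for 14452 of 18193 genes, with the first listed window taken.

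The brightest probe set stood for a gene. The detection level was the 40th percentile of each array, and the filter on spread the 60th percentile of probe set means. The rule for named genes took the 30 highest means, the 20 largest SDs, of each list the members not detected, the brightest, the dimmest and those of widest span, and Phf8. Of the list members it took, only some are printed. Other genes of wide span, and their other probe sets, were chosen after their values were seen. The members and the 44 gene lists were chosen with earlier results of these data known. Alternatives were other percentiles, quantile normalization, median centring, 16 units added to the signal before taking log2, other rules for probe sets and leaving out each array. The steps were tested on simulated data. Python 3.11.15, pandas 2.3.3, numpy 2.4.6 and matplotlib 3.10.9 were used. Precision is limited by having 3 arrays.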

Additional observations from a re-analysis of the deposited data

How the results depend on the processing

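No paired analysis was possible because a single group of 3 arrays was described and no test was made. The number of detected genes followed the percentile chosen, with 14489 at the 20th and 9430 at the 60th against 12146, and lay between these under all other alternatives run. Of neuronal and glial markers, 133 to 158 were detected. The median SD stayed between 0.07 and 0.11 except without a filter on the mean signal, where it was 0.16. The 68 genes that spanned at least 1 became 3766 with no filter, 324 with a filter at the 40th percentile and 18 with one at the 75th, since the number of dim genes admitted sets that count. Leaving out 1 array gave 21 to 60, the lowest without WT replicate 3 and 27 without WT replicate 2, since the pair of WT replicates 2 and 3 differed in the most genes. Of the 30 brightest genes, 18 remained when the median of a gene's probe sets was used and 11 when sets with a letter in their suffix were left out. Of the 20 genes of largest SD, 12 remained with the median of the probe sets, none (0) without a filter, 5 with a filter at the 40th percentile, 9 at the 75th and 8 to 19 without 1 array, the lowest without WT replicate 3 and 10 without WT replicate 2. Divided by the median SD of genes of like signal, 15 remained. Quantile normalization, median centring and the offset kept all 30 and all 20. Probe brightness over background limits all values of dim genes.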

Other observations

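Genes of regions beside the hippocampus were read on the same arrays, on which 66.8% of all genes were detected. Of 19 measured genes of thalamus and habenula 17 were detected, with Tcf7l2, a transcription factor of the thalamus, at 7.99, 8.13 and 8.28, and Prkcd, a protein kinase C gene, at 9.05, 8.96 and 8.83 on WT replicates 1, 2 and 3. Gbx2, a homeobox gene of the developing thalamus, had a mean of 4.01 and was not detected. Of 11 genes of the cerebellum 4 were detected, of 12 of the hypothalamus 5, of 10 of the striatum 8 and of 10 of deep cortex and claustrum 7. Several of these genes are also used in the hippocampus, as is Calb1 on the cerebellum list, with a mean of 12.56.

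Trhr, a receptor for thyrotropin-releasing hormone, had 7.14, 6.58 and 8.46, a mean of 7.40 just below the filter, and was highest on WT replicate 3. The gene was chosen after its values were seen. Of the globin genes on the erythrocyte list, Hbb-b2 and Hba-a2 had means of 8.77 and 6.25 and were detected, and Hba-a1 had 2.81 and was not.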
